A study of Mus musculus with 6 samples.

Results

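The genes described here form the core of the Wnt pathway: the Wnt ligands, their Frizzled and Lrp receptors, the secreted antagonists of the Sfrp and Dkk families, the cytoplasmic proteins that carry the signal, the Nkd inhibitors and the TCF/LEF transcription factors. They were taken by gene symbol from the array's annotation, using probes assigned to a single gene. The rule found 59 of 34967 gene probes, for 52 of 18069 genes. Of these, 57 probes carried values on all 6 arrays. The probe of Wnt8b and 1 of 4 probes of Fzd3 carried none. Tcf7 had no probe under the rule, and the only Gsk3b probe is shared with another gene and was not used.

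The cells were neurospheres, floating clusters of neural precursors, grown from the dorsal telencephalon of C57BL/6 mouse fetuses at embryonic day 12.5 in medium with bFGF, EGF and LIF. The 3 control cultures received a nonsense oligonucleotide with 2'-O-methyl bases, labelled 2' O Me-EGFP, and the 3 anti-miR-335 cultures an antisense oligonucleotide of the same chemistry, labelled 2' O Me-335, both for a period given as 24 without a unit. Each culture was read on 1 single-colour CodeLink mouse array, to find the mRNAs whose level differs after miR-335 is blocked. The design calls the replicates independent but gives no step at which they separate, so each p-value reflects only how these 6 samples vary, which may be technical. The treated arrays are those of the anti-miR-335 cultures. Neurospheres hold a mixture of cells, and fewer cells of a type cannot be told apart here from less RNA per cell.

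Wnt proteins are secreted lipid-modified ligands that bind Frizzled receptors, together with Lrp5 or Lrp6 when they signal through beta-catenin. Without ligand, a complex of Axin, Apc and the Gsk3 kinases marks beta-catenin for destruction; with ligand, Dishevelled (Dvl) proteins disable that complex and beta-catenin joins TCF/LEF factors on DNA. In the embryonic cortex the pathway is known for holding precursors in division, for setting dorsal identity and for later promoting neuronal differentiation. The microRNA blocked here binds mRNAs through its seed, bases 2 to 8. Its mature forms are shown because they are the target of the treatment; the labels do not say which arm the oligonucleotide was made against. The seeds, in capitals, differ between the arms. Sequences are RefSeq's (GRCm38.p6), from chr6:30741314-30741336 and chr6:30741354-30741375 on the plus strand.
mmu-miR-335-5p: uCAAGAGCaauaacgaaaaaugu
mmu-miR-335-3p: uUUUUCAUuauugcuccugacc

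Intensities carry the authors' scaling, with each array's median near 1. For every array a background limit was drawn from its negative control spots, 3 scaled median absolute deviations over their median, and it lay between 0.492 and 0.692. By that limit 36 of the 57 Wnt probes were above background on at least 3 of the 6 arrays, which is 63.2%, against 63.0% of all gene probes with values, and 12 were above it on no array. The classes differed in this: 12 of 19 ligand probes, 10 of 12 Frizzled probes, both co-receptor probes, 6 of 9 transducer probes, both Nkd probes, 3 of 4 TCF/LEF probes and 1 of 9 antagonist probes passed. A probe's brightness depends on its sequence, so levels are compared between arrays and not between genes.

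Control replicate 1 stood apart. On probes above background its log2 intensities correlated with the other control arrays at 0.971 and 0.962, and with the treated arrays at 0.974 to 0.979; the other control arrays correlated with each other at 0.984. For 21 of the 36 Wnt probes above background it lay nearer the treated mean than the mean of control replicates 2 and 3, against 61.4% of all probes above background. The groups are those of the labels; miR-335 itself was not analysed here, so its level is no check on them, and whether control replicate 1 carries the right label was not tested. All differences over 6 arrays rest on that label, and values without the array are given beside those it changes most. The cells' markers were partly those of the labelled tissue. The precursor genes Fabp7, Vim, Sox2, Nes and Hes5 were above background on all 6 arrays. Of the dorsal telencephalic genes, Pax6 and Emx2 were above it on all 6 arrays, and Emx1, read by 1 probe, on none. The ventral genes Nkx2-1 and Gsx2 were above it on all 6.

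**Figure D1:**
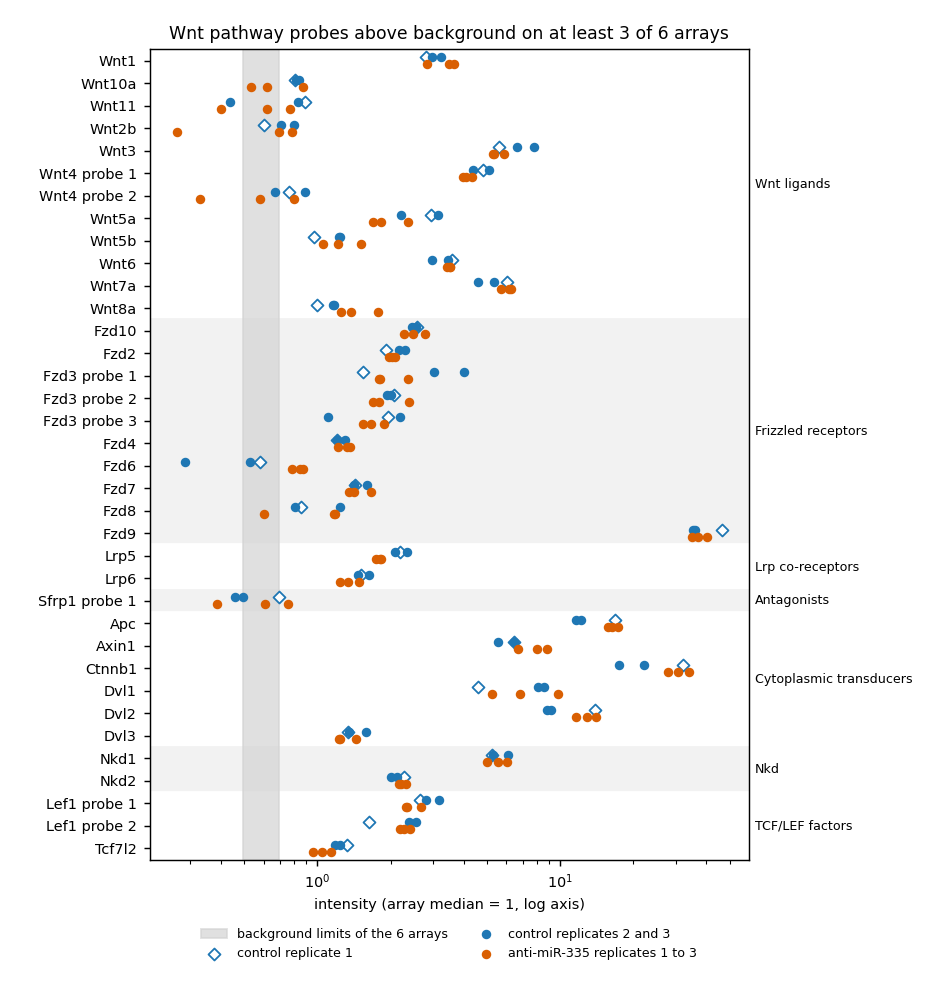
Intensity (horizontal log axis, array median = 1) of each of the 36 Wnt pathway probes above background on at least 3 of 6 arrays, by role; points are single arrays, the open diamond is control replicate 1 and the grey band spans the background limits from 0.492 to 0.692. For Ctnnb1, Apc and Dvl2 the diamond lies among the treated points, and for Fzd6 the 3 control points lie within or below the band.

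No Wnt gene passed the test. With limma, 0 of the 57 Wnt probes had an adjusted p under 0.05 over all 34847 probes tested (0% of all probes called), and the smallest adjusted p was 0.469, for Fzd6. At an unadjusted p under 0.05 there were 3 of 57, or 5.26%, against 9.07% of all probes. Fzd6 and Axin1 were on the higher side, as were 4.91% of all probes, and Wnt5a on the lower, as were 4.17%. Group values did not overlap for 6 of 57 probes, or 10.5%, against 14.7% of all probes with 6 values. Wnt8a, Fzd6 and Axin1 lay higher in all treated arrays, as did 7.46% of all probes, and the brighter Wnt4 probe, Lrp5 and Tcf7l2 lay lower, as did 7.25%. The median log2 difference, anti-miR-335 minus control, was -0.02 over the 57 probes, 25 of them positive, and 0.01 over all probes tested. Over the 36 probes above background it was -0.01, against 0.03 over all probes above background; Fzd6 is among the 36 only through the treated arrays.

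Without control replicate 1, 4 of 57 Wnt probes passed, or 7.02%, against 3.17% of all probes. Of these, Ctnnb1, Apc and Dvl2 passed as higher, as did 2.27% of all probes. The brightest probe of Fzd3 passed as lower, as did 0.906%. At an unadjusted p under 0.05 there were 12 of 57, or 21.1%, against 18.4% of all probes, and group values did not overlap for 18 of 57, or 31.6%, against 35.5%. The control group then holds 2 arrays. The array was left out because it stood apart over the whole array, and for each of these 4 probes it lies on the treated side of the other controls.

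Of the transducers' 6 probes above background, 5 had positive differences, with a median of 0.30, against 0.03 over all probes above background. Ctnnb1 encodes beta-catenin, the protein on which the canonical branch turns. It read 32.0, 22.1 and 17.5 on control replicates 1, 2 and 3 (the order used throughout) and 27.9, 30.6 and 34.1 on the treated arrays. Control replicates 2 and 3 were thus lower than the other 4 arrays, and the groups overlapped through control replicate 1. The log2 difference was 0.41 ± 0.19 (SE; adjusted p = 0.563 by limma), and 0.64 ± 0.12 without control replicate 1 (adjusted p = 0.0304).

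Apc, the tumour suppressor that serves as a scaffold of the destruction complex, showed the same arrangement. It read 16.9, 12.2 and 11.6 in the controls and 15.7, 16.4 and 17.3 on the treated arrays. Again only control replicates 2 and 3 were low. The difference was 0.30 ± 0.14 over all arrays (adjusted p = 0.569 by limma) and 0.47 ± 0.09 without control replicate 1 (adjusted p = 0.0282). Dvl2, a Dishevelled protein that relays the signal from the receptor, lay at 13.9, 9.16 and 8.78 in the controls and at 11.6, 12.9 and 14.1 on the treated arrays. Its difference was 0.30 ± 0.17 (adjusted p = 0.628 by limma), and 0.52 ± 0.10 without control replicate 1 (adjusted p = 0.0309). From lowest to highest, the 6 arrays stood in the same order for all 3 genes. Fbxw11 and Porcn, genes outside the rule, showed that order too, so it is not particular to these genes. Its share over all probes was not counted. Control replicate 1 exceeded the other controls by 0.51, 0.64 and 0.70 on the log2 scale for Apc, Dvl2 and Ctnnb1, more than the treated mean did (0.47, 0.52 and 0.64).

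Axin1, the limiting scaffold of the destruction complex, did not share that arrangement. It lay at 6.47, 6.45 and 5.54 in the controls and at 6.68, 8.02 and 8.79 on the treated arrays, so that the groups did not overlap, with treated replicate 1 close to the controls. The means were 7.83 ± 1.07 against 6.15 ± 0.533 (SD, n = 3 each). The log2 difference of 0.34 ± 0.13 did not pass (adjusted p = 0.494 by limma), nor did the 0.38 ± 0.13 without control replicate 1 (adjusted p = 0.143). The other Dishevelled genes did not follow Dvl2. Dvl1 lay at 4.57, 8.12 and 8.57 in the controls and at 6.80, 9.82 and 5.24 in the treated arrays, a difference of 0.05 ± 0.26 with wide spread in both groups, which became -0.24 ± 0.21 without control replicate 1. Dvl3 lay between 1.23 and 1.59 on the 6 arrays and differed by -0.13 ± 0.17.

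Axin2, the paralogue of Axin1 that beta-catenin itself switches on and a common readout of the pathway, was above background on no array. Its values ran from 0.188 to 0.366, so no level was measured. Both probes of the kinase gene Gsk3a were also dim: the first was above background on control replicate 2 only, and the other on no array.

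**Figure D2:**
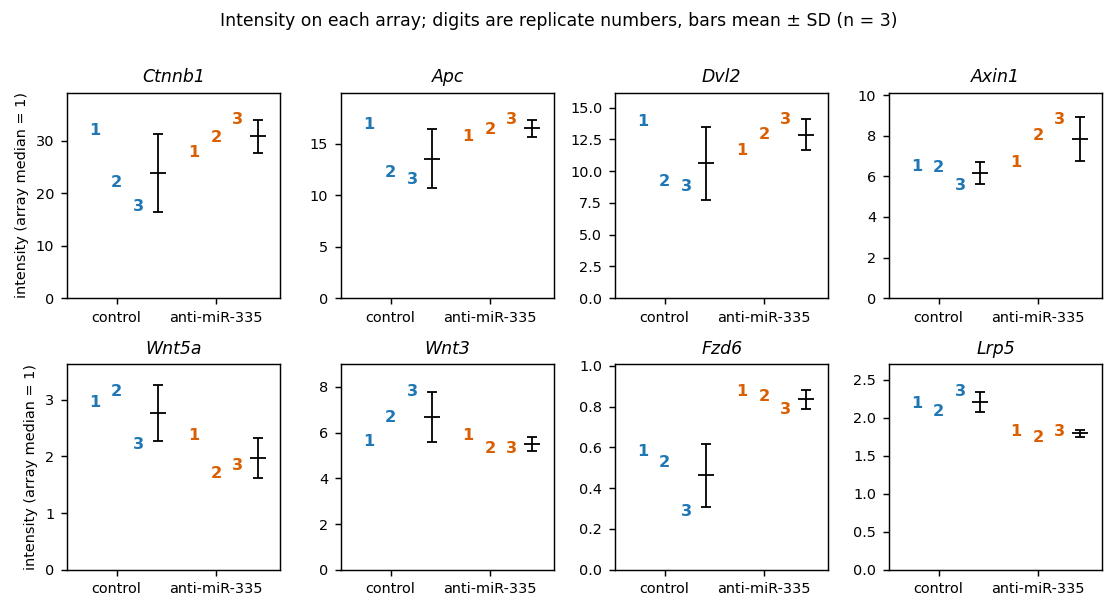
Intensity (vertical axis from 0, array median = 1) of 8 Wnt pathway genes on each array; digits give the replicate number and bars the mean ± SD of 3 arrays. Control replicate 1 reads 32.0 for Ctnnb1 against 22.1 and 17.5 on the other controls, while for Lrp5 the 3 treated arrays, from 1.74 to 1.82, lie below every control array.

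The proximal promoters of Ctnnb1 and Dvl2 are printed because these genes shared their order over the arrays and passed without control replicate 1. The choice was thus made from the same values. Apc met both conditions too, but no promoter window was available for it. Each line gives the 250 bases before an annotated start, read in the gene's direction, from RefSeq's table for GRCm38.p6. They lie at chr9:120933150-120933399 and chr11:70000342-70000591, both on the plus strand. TCF/LEF factors bind motifs of the kind CTTTGAA, and also searched were CTTTGAT, then CTTTGTA and, last, CTTTGTT. The 4 motifs differ only at their ends and were searched on both strands, and a match would stand in capitals.
Ctnnb1: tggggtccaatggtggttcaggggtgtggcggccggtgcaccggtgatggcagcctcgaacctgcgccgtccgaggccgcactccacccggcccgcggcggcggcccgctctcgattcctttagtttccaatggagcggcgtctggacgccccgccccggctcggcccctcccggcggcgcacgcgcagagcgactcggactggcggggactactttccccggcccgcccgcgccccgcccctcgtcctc
Dvl2: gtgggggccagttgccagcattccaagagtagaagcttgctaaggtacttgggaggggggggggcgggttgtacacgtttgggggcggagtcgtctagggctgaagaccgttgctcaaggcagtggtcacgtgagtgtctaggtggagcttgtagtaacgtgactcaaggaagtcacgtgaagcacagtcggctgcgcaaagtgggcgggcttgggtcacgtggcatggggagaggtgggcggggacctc
Neither window holds a match, nor does a second Ctnnb1 window, at chr9:120933328-120933577, which is not printed. The 250 bases are 74.8% G or C for Ctnnb1 and 60.8% for Dvl2. RefSeq's table matched 36 of the 52 Wnt genes with 44 windows, of which 7 hold a match, or 15.9%, against 14.8% of all 32851 windows. The median G and C content was 67.4% in the Wnt windows and 52.4% in all windows. The 7 windows belong to Wnt5b, Wnt11, Fzd7, Dkk1, Gsk3a, Lef1 and Tcf7l2. A match is a description of the letters and not a bound site.

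Among the 12 ligand probes above background, 7 had negative differences, or 58.3%, against 44.3% of all probes above background, with a median of -0.23 against 0.03. Over all 19 ligand probes 13 were negative, or 68.4%, against 48.1% of all probes tested. Of the 19, 7 were not above background on 3 arrays, and the sign of so dim a probe says little. Wnt5a, a ligand best known for signalling without beta-catenin, lay at 2.95, 3.15 and 2.21 in the controls and at 2.36, 1.69 and 1.84 on the treated arrays. The groups overlapped where control replicate 3 fell below treated replicate 1. The means were 1.96 ± 0.354 in the treated arrays and 2.77 ± 0.495 in the controls (SD, n = 3 each). The difference of -0.49 ± 0.18 did not pass (adjusted p = 0.493 by limma; 0.261 without control replicate 1).

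Wnt3 and Wnt4 also had negative differences that did not pass. Wnt3, a canonical ligand, lay at 5.59, 6.66 and 7.81 in the controls and at 5.87, 5.32 and 5.31 in the treated arrays. Control replicate 1 lay inside the treated range and the other controls above it. The difference was -0.27 ± 0.13 (adjusted p = 0.590 by limma), and -0.39 ± 0.10 without control replicate 1 (adjusted p = 0.0755). Wnt4, known from kidney and gonad development, lay on its brighter probe at 4.82, 4.39 and 5.09 in the controls and at 3.96, 4.1 and 4.35 in the treated arrays. All 3 treated values were below the controls, by a small margin. The brighter probe differed by -0.20 ± 0.11 (adjusted p = 0.634 by limma). The dimmer Wnt4 probe lay at 0.762, 0.887 and 0.671 against 0.581, 0.327 and 0.800, measurable on all 3 controls but on 1 treated array, and differed by -0.53 ± 0.34.

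Wnt7a and Wnt8a had positive differences that did not pass. Wnt7a, a ligand of the ventricular zone of the cortex, lay at 6.05, 4.60 and 5.31 in the controls and at 5.68, 6.16 and 6.26 in the treated arrays. Control replicate 1 again lay within the treated range. The difference was 0.19 ± 0.13 over all arrays (adjusted p = 0.684 by limma) and 0.29 ± 0.10 without control replicate 1 (adjusted p = 0.171). Wnt8a, a ligand of the early embryo, lay at 0.996, 1.16 and 1.17 against 1.38, 1.25 and 1.78, with no overlap. Its difference was 0.39 ± 0.20 (adjusted p = 0.593 by limma).

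The other ligands above background had small differences or lay close to background. Wnt1, which patterns the midbrain, had a difference of 0.15 ± 0.14, Wnt5b 0.13 ± 0.21 and Wnt6 0.07 ± 0.12, which became 0.10 ± 0.13, 0.02 ± 0.20 and 0.12 ± 0.11 without control replicate 1. Wnt6 lay between 2.95 and 3.57 on the 6 arrays. Wnt10a, Wnt11 and Wnt2b were above background on 5, 4 and 4 arrays, with differences of -0.32 ± 0.25, -0.25 ± 0.35 and -0.42 ± 0.40; that of Wnt11 became -0.07 ± 0.39 without control replicate 1. Wnt3a, the ligand of the cortical hem, exceeded background on 2 arrays, as did Wnt9a and Wnt10b. Wnt2, Wnt7b, Wnt9b and Wnt16 exceeded it on none. Wnt7b read 0.272, 0.492 and 0.512 in the controls and 0.339, 0.101 and 0.254 in the treated arrays, values that carry no order below background.

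Several ligand genes sit side by side in the genome, and neighbours were not detected alike. In RefSeq's gene order 4 pairs of the measured ligands have no coding gene between them. Wnt3 was above background on 6 arrays and its neighbour Wnt9b on 0, and Wnt1 on 6 and its neighbour Wnt10b on 2. Wnt6 was above background on 6 arrays and its neighbour Wnt10a on 5, and Wnt3a and Wnt9a on 2 each. Probes differ in sensitivity, so these counts do not rank the genes.

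**Figure D3:**
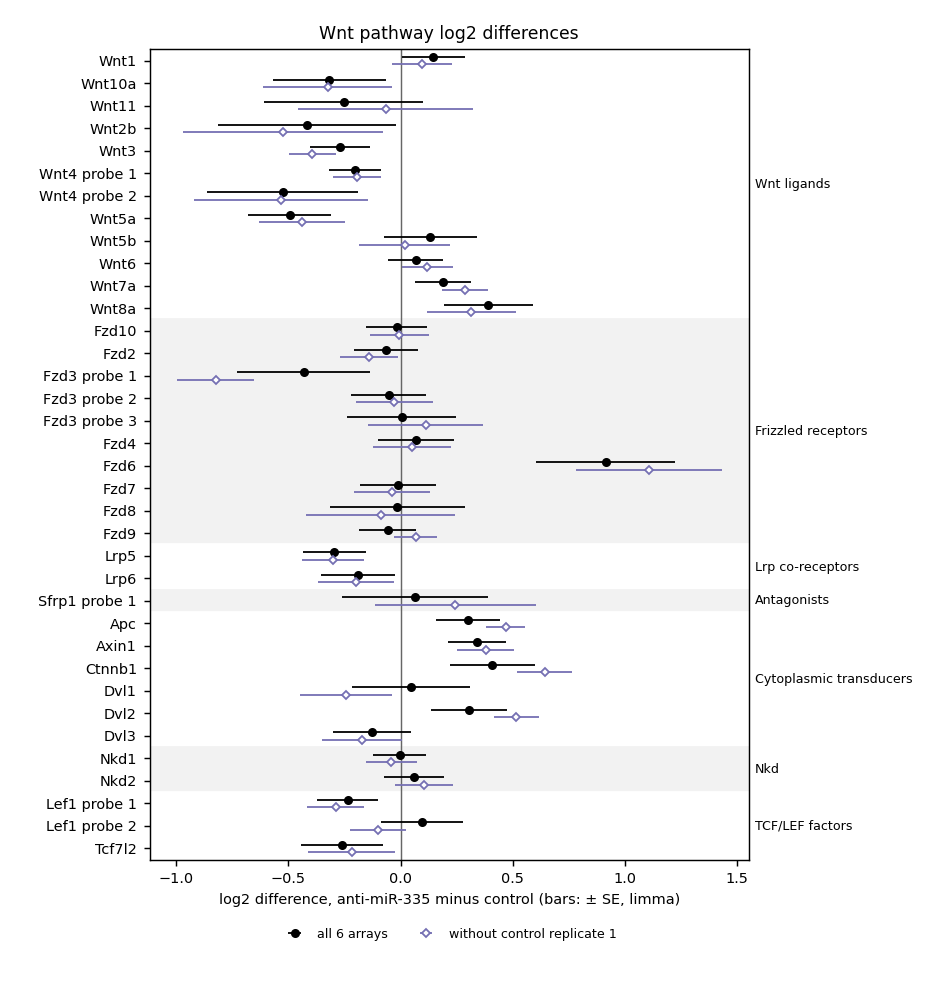
Log2 difference, anti-miR-335 minus control, of the 36 Wnt pathway probes above background (horizontal axis; bars ± SE from limma), by role; filled circles use all 6 arrays and open diamonds leave out control replicate 1. Ctnnb1, Apc and Dvl2 move from 0.41, 0.30 and 0.30 to 0.64, 0.47 and 0.52, and the brightest Fzd3 probe from -0.43 to -0.82.

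The Frizzled receptors, which carry the ligand-binding domain, centred near 0, with a median of -0.02 over 12 probes. Fzd6, a receptor of planar polarity and hair patterning, had the smallest p of the Wnt probes. It lay at 0.578, 0.526 and 0.286 in the controls and at 0.875, 0.850 and 0.784 on the treated arrays. It was above background on every anti-miR-335 array and on no control array. Taken against the lowest measurable signal on the control arrays, it was at least 1.3-fold higher, and it did not pass (adjusted p = 0.469 by limma; 0.0973 without control replicate 1). For that bound each dim array enters at its lowest signal above background, or at the probe's own signal where that is higher. Fzd1 was measurable on 2 control arrays and on none of the treated. It read 0.774, 0.449 and 0.767 in the controls and 0.676, 0.463 and 0.448 in the treated arrays, so the groups overlapped. The difference was -0.31 ± 0.31 (limma's adjusted p = 0.807), and -0.18 ± 0.35 without control replicate 1.

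Fzd3, a receptor of axon guidance, gave different readings on its 3 measured probes. The brightest lay at 1.54, 3.03 and 4.02 in the controls and at 2.36, 1.81 and 1.78 on the treated arrays. Control replicate 1 was the lowest array of all. Its difference was -0.43 ± 0.30 (adjusted p = 0.694 by limma) and -0.82 ± 0.17 without control replicate 1 (adjusted p = 0.0378). The others gave -0.05 ± 0.17 and 0.01 ± 0.24, and -0.03 ± 0.17 and 0.11 ± 0.26 without that array, so the fall was not seen on them. Fzd3 is described at this length because its probe passed without control replicate 1, a choice made after its values were seen.

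The rest of the family differed little. Fzd9 lay at 46.2, 35.9 and 35.2 in the controls and at 35.0, 40.1 and 36.9 on the treated arrays, a difference of -0.06 ± 0.13 that turned to 0.07 ± 0.10 without control replicate 1. Fzd10 lay at 2.56, 2.45 and 2.55 against 2.27, 2.46 and 2.76, a difference of -0.02 ± 0.13. Fzd2, Fzd4, Fzd7 and Fzd8 were above background on all 6 arrays with differences of -0.07 ± 0.14, 0.07 ± 0.17, -0.01 ± 0.17 and -0.02 ± 0.30; without control replicate 1 that of Fzd2 was -0.14 ± 0.13 and that of Fzd8 -0.09 ± 0.33. Fzd5, a receptor of the eye field, read 0.304, 0.545 and 0.531 against 0.586, 0.267 and 0.559, above background on 1 array.

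Both co-receptors, single-pass proteins that join Frizzled at the membrane, had negative differences. Lrp5 lay at 2.18, 2.08 and 2.35 in the controls and at 1.82, 1.74 and 1.82 on the treated arrays. The groups did not overlap, and control replicate 1 lay between the other controls. The difference was -0.30 ± 0.14 (adjusted p = 0.571 by limma), and -0.30 ± 0.14 without control replicate 1 (adjusted p = 0.284). Lrp6 lay at 1.52, 1.63 and 1.47 against 1.48, 1.34 and 1.24, overlapping by 1 array in each group, with a difference of -0.19 ± 0.16 (adjusted p = 0.765 by limma).

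The Sfrp and Dkk antagonists of the rule were at or below background. Sfrp proteins bind Wnts outside the cell, and Dkk proteins block the co-receptors. The Sfrp1 probe that passed the limit read 0.691, 0.456 and 0.492 in the controls and 0.385, 0.756 and 0.606 in the treated arrays, with a difference of 0.06 ± 0.33 that became 0.25 ± 0.36 without control replicate 1. A dimmer Sfrp1 probe read 0.645, 0.189 and 0.393 against 0.538, 0.377 and 0.804. Sfrp4 read 0.270, 0.488 and 0.584 against 0.578, 0.541 and 0.780, with 1 treated array above background. Sfrp2, Sfrp5, Dkk1, Dkk2, Dkk3 and Dkk4 were above background on no array. Changes in these 6 genes were not detectable at this signal. Other secreted inhibitors, named here after their values were seen, were measured: Frzb, an Sfrp relative, and Wif1 were above background on all 6 arrays, with differences of -0.29 ± 0.18 and -0.13 ± 0.22.

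Nkd1 and Nkd2, inhibitors of Dishevelled that the pathway induces, both had differences near 0. Nkd1 lay at 5.25, 5.28 and 6.08 in the controls and at 5.53, 6.06 and 4.99 on the treated arrays, means of 5.54 ± 0.470 and 5.53 ± 0.537 (SD, n = 3 each). Nkd2 lay at 2.27, 2.13 and 2.01 against 2.16, 2.20 and 2.32. Their log2 differences were -0.00 ± 0.12 and 0.06 ± 0.14, both within their errors.

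Of the TCF/LEF factors, which carry beta-catenin on DNA, Tcf7l2 lay at 1.33, 1.24 and 1.18 in the controls and at 1.04, 1.13 and 0.957 on the treated arrays. The treated values were all lower, and the difference of -0.26 ± 0.18 did not pass (adjusted p = 0.698 by limma). Lef1 had a pair of probes above background that gave opposite signs. The brighter lay at 2.66, 2.80 and 3.16 against 2.31, 2.66 and 2.34, a difference of -0.24 ± 0.14. The dimmer lay at 1.63, 2.38 and 2.54 against 2.19, 2.27 and 2.41, a difference of 0.10 ± 0.18 that turned to -0.10 ± 0.13 without control replicate 1. Tcf7l1 was above background on 1 array. The window upstream of a downstream Lef1 start is shown because it holds 1 of the 4 motifs, CTTTGTA on the opposite strand, in capitals. Of the 4 Lef1 windows, it alone holds a match. It lies at chr3:131156044-131156293 on the plus strand and ends just before that start.
Lef1: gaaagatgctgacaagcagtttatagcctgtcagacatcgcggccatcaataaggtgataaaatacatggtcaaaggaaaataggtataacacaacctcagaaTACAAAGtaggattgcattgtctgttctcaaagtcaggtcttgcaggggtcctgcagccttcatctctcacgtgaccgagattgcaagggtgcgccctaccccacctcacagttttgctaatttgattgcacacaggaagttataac

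**Figure D4:**
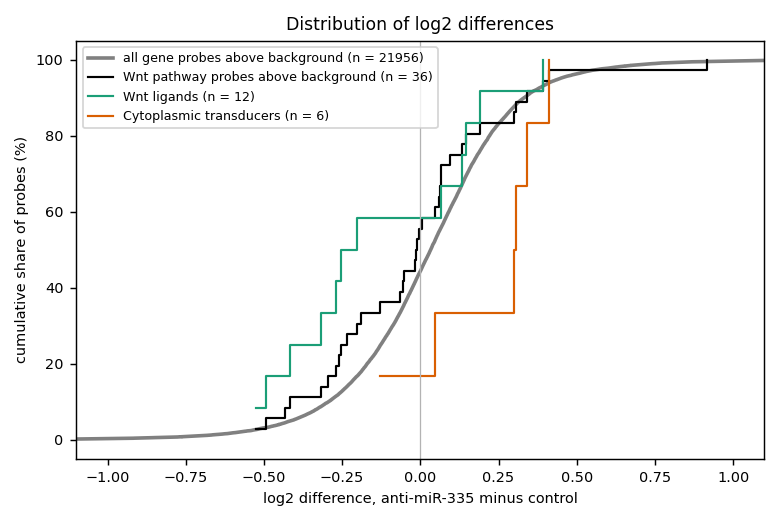
Cumulative share of probes (vertical axis, percent) by log2 difference, anti-miR-335 minus control (horizontal axis), for all 21956 gene probes above background, the 36 Wnt probes above background and, among these, 12 ligand and 6 transducer probes. The ligand line lies left of the grey line at its median (-0.23), and the transducer line right of it (0.30); neither class was tested as a group.

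Genes that work with these members were read from a list of 60 partners, of which 56 were measured and 49 were above background. None passed (0 of 56 by limma; 3, or 5.36%, at an unadjusted p under 0.05 against 9.07% of all probes), and the median difference of those above background was 0.08, against 0.03 over all probes above background. Celsr3, a cadherin of planar polarity, lay at 1.04, 0.857 and 0.720 in the controls and at 1.42, 1.50 and 1.45 on the treated arrays, with no overlap (0.75 ± 0.20; adjusted p = 0.412 by limma). Tle4, a co-repressor that TCF factors recruit, lay on its brighter probe at 14.2, 10.2 and 10.3 against 15.0, 14.5 and 16.4 (0.42 ± 0.14; adjusted p = 0.460 by limma), and a dimmer Tle4 probe gave 0.23 ± 0.16. Without control replicate 1, Celsr3 and the brighter Tle4 probe passed, and the dimmer Tle4 probe did not (0.20, adjusted p = 0.583 by limma). Celsr1, the beta-catenin ubiquitin ligase gene Fbxw11 and the Axin regulator gene Tnks2 also passed as higher there, and the R-spondin gene Rspo1 as lower. In that fit 6 of 56 partners passed, or 10.7%, against 3.17% of all probes. The list takes the brightest probe of each gene, while the shares of all probes include dim ones. Of the 21956 probes above background, 1082 passed in that fit, and 2418 had an unadjusted p under 0.05 by limma over all 6 arrays. On Celsr1, Fbxw11 and Tnks2, control replicate 1 read 7.58, 31.5 and 69.9, each above the 3.68, 20.3 and 36.9 of control replicate 2. For Celsr1 and Tnks2 it was the highest of the 6 arrays, above treated maxima of 7.55 and 51.9. Over all 6 arrays the 3 genes differed by 0.45 ± 0.25, 0.34 ± 0.18 and 0.15 ± 0.23 (adjusted p = 0.629, 0.609 and 0.876 by limma).

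Genes commonly listed as beta-catenin targets numbered 37, of which 34 were measured and 28 were above background. None passed (0 of 34 by limma; 5, or 14.7%, at an unadjusted p under 0.05 against 9.07% of all probes), and the median difference of those above background was 0.09. Jun, an AP-1 factor, lay at 39.7, 24.5 and 26.4 against 51.5, 58.6 and 58.0 (0.92 ± 0.17; adjusted p = 0.342 by limma), and Ccnd2, a D-type cyclin, at 22.5, 21.3 and 24.6 against 15.3, 16.4 and 12.6 (-0.63 ± 0.12; adjusted p = 0.351). For both genes no array of either group overlapped the other, and they lie in opposite directions. The specific target genes Sp5 and Axin2 were above background on no array, and Notum, Apcdd1, Lgr5 and Znrf3 differed by -0.07 to 0.19 on the log2 scale. Rnf43, the paralogue of Znrf3, read 0.972, 0.730 and 0.762 in the controls and 1.02, 1.05 and 1.04 in the treated arrays, with no overlap (0.34 ± 0.21; adjusted p = 0.662 by limma). Many of these genes answer to other pathways as well. Without control replicate 1, 4 of the targets passed as higher (Id2, Jun, Pax6 and Gja1) and 2 as lower (Ccnd2 and Klf5). Together these are 17.6% of the 34, against 3.17% of all probes and 1082 of the 21956 probes above background. Here too the brightest probe stands for a gene, and the list was chosen with earlier results of these data known.

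Markers of the cells that neurospheres can hold were read beside these values. Astrocyte markers, all 5 above background, summed to between 148 and 186 in the controls and between 168 and 194 on the treated arrays. Their differences were positive for 4 and negative for S100b (-0.10), which with Slc1a3 (0.30) makes up most of the sum. Neuronal markers, 3 of 5 above background, summed to between 6.44 and 9.82 over these 3 in the controls and between 8.50 and 11.7 in the treated arrays, with Stmn2 above background on no array. Map2 and Tubb3 differed by 0.19 and 0.18 on their brighter probes, with overlapping groups (adjusted p = 0.869 and 0.791 by limma). Neither passed without control replicate 1 (adjusted p = 0.0801 and 0.595 by limma). A second Tubb3 probe, above background on no array, gave -0.25 ± 0.41. The hem and choroid plexus genes Ttr, Lmx1a and Bmp4, the mesenchymal genes Col1a1, Col1a2, Col3a1 and Lum, the endothelial genes Cdh5, Flt1 and Pecam1 and the leukocyte gene Ptprc were above background on no array. Dcx, a marker of young neurons, read 2.56, 2.44 and 2.27 in the controls and 3.64, 5.53 and 5.81 in the treated arrays. The astrocyte water channel gene Aqp4 read between 9.85 and 11.5 against 15.0 to 17.9. These are the brighter probes. Neither passed (limma's adjusted p = 0.333 for both), and both did without control replicate 1 (adjusted p = 0.0252 and 0.0159). A second Aqp4 probe, above background on all 6 arrays, gave 0.54 ± 0.15 and did not pass without that array (adjusted p = 0.0939 by limma). A second Dcx probe, above background on 1 array, gave -0.27 ± 0.50. Gja1, an astrocyte gap junction gene also among the targets above, read 6.27, 7.17 and 4.37 against 15.3, 15.8 and 8.49 (adjusted p = 0.374 by limma; 0.0469 without control replicate 1). Cortical precursor markers, 7 of 8 measured above background, summed to between 243 and 246 against 260 to 292. Fabp7 and Vim make up most of that sum, with differences of 0.29 and 0.05. Of the 7 differences 5 were positive and 2 negative, -0.15 for Nes and -0.25 for Emx2. Microglial markers, 2 of 4 above background, summed to between 5.22 and 5.86 against 4.17 to 4.61, but their differences had opposite signs, -0.57 for Trem2, which makes up most of the sum, and 0.58 for Cx3cr1. Those of hem and choroid plexus, 2 of 6, summed to between 18.3 and 21.2 against 15.1 to 17.9, again with opposite signs, -0.33 for Bmp7, which makes up most of the sum, and 0.26 for Msx1. The oligodendrocyte lineage markers, all 5 above background, spread from 17.7 to 41.4 in the controls and from 24.9 to 52.1 in the treated arrays. Olig1 lay between 1.61 and 26.8 on single arrays. Of the 5 differences 2 were positive, those of Pdgfra and Sox10. The other 3 were negative, -0.20 for Olig1, -0.24 for Cspg4 and -0.29 for Olig2. Pdgfra, of oligodendrocyte precursors, read 9.64, 7.01 and 7.21 against 13.2, 17.6 and 17.05 (adjusted p = 0.333 by limma; 0.00833 without control replicate 1), and Sox10 2.31, 2.44 and 2.89 against 3.13, 3.34 and 3.40 (adjusted p = 0.486 by limma). Ventral telencephalic markers, all 5 above background, summed to between 21.5 and 28.0 against 23.8 to 29.3, mesenchymal markers, 2 of 6, to between 5.91 and 7.50 against 6.64 to 8.11, and endothelial markers, 2 of 5, to between 1.02 and 1.95 against 1.12 to 1.54. Of the ventral differences 3 were positive and 2 negative, -0.12 for Nkx2-1 and -0.03 for Gsx2. Foxc1, with a difference of 0.16, makes up most of the mesenchymal sum. The other mesenchymal gene, Pdgfrb, was above background on 3 arrays. The part of these cell types in the Wnt values was not tested.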

How the data were processed

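In all, 6 arrays were analysed, 3 per group. The intensities deposited by the authors are linear and divided by each array's median with CodeLink software, per the labels; the file headers give CodeLink Expression Analysis 4.1.0.29054. Scanner output was used for replicate 1 of each group and equalled the deposited intensities on all 35976 and 36032 shared values; there raw intensity was spot mean minus local background. Slide and scan could not be tested as batches with a scanner header for 1 array per group.

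Members and lists were chosen with earlier results of these data known. Symbols came from the platform's annotation, checked against RefSeq's gene table (GRCm38.p6). Control spots were left out. Intensities under 0.163, the 5th percentile of positive values, were raised to it before log2. Groups were compared with limma 3.58.1 (R 4.3.3; lmFit, eBayes with intensity trend; two-sided; Benjamini-Hochberg over 34847 probes with at least 2 values per group; no covariate). Gene probe medians were 0.991 to 0.996, and 59.9% to 67.3% of gene probes were above background on an array. Precision is limited by 3 arrays per group. On replicate 1, the scanner software flagged 18 (control) and 22 (anti-miR-335) of 57 Wnt probes as near background, and 0 of these exceeded the limit used here.

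Array values are given for the 12 probes above background of smallest p, the 2 brightest per class, Axin2, Lef1, Ctnnb1, Wnt5a, Wnt7b, Fzd5 and Sfrp1, and other probes of these genes; of each partner or target list, the 2 of smallest p. The brightest probe stands for a gene in those lists. Same-numbered arrays' deviations from their group means correlated at -0.22, -0.04 and -0.15, so the numbers were not taken as pairs. The scripts were tested on simulated data. Alternatives were quantile normalization, other floors, dim probes left out, other variance models, array weights, a replicate block and leaving out arrays.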

Additional observations from a re-analysis of the deposited data

How the results depend on the processing

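The count of Wnt probes past the threshold was 0 under the replicate block, quantile normalization, all other floors, dim probes left out, both other variance models and array weights. Of all gene probes 1 passed once arrays were quantile-normalized, 3 under the robust variance model and 474 with array weights, while 0 passed in the other cases, the replicate block included. Leaving out arrays gave 0 to 1571 probes and 0 to 4 Wnt probes. Control replicate 1 decides this: without it 1100 probes and 4 Wnt probes passed, and without the replicate 1 pair 1571 and 4, in both cases Ctnnb1, Apc, Dvl2 and the brightest Fzd3 probe. Without anti-miR-335 replicate 1 the count was 1 and 0. The Wnt median over probes above background ran from -0.087 without anti-miR-335 replicate 2 to 0.021 without anti-miR-335 replicate 1, and was -0.01 with 1 probe per gene.

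Small differences turned sign. Fzd5 was 0.039 after quantile normalization and 0.059 at the 20th percentile floor. With array weights Fzd10 was 0.028, Fzd9 0.036, the dimmest measured Fzd3 probe -0.096, Axin2 -0.060, Nkd1 0.0059 and the dimmer Lef1 probe -0.0073. Leaving out arrays gave -0.093 to 0.062 for Fzd10, -0.48 to 0.51 for Fzd5, -0.17 to 0.11 for Fzd9, -0.23 to 0.045 and -0.37 to 0.21 for the other Fzd3 probes, -0.27 to 0.52 for the brighter Sfrp1 probe, -0.17 to 0.46 for Axin2, -0.11 to 0.14 for Nkd1, -0.013 to 0.13 for Nkd2 and -0.10 to 0.22 for the dimmer Lef1 probe. Ctnnb1, Apc, Dvl2, Axin1, Wnt5a, Wnt3, Fzd6 and Lrp5 kept their sign in all these cases. Others did too, among them Wnt7b, above background on no array, and Sfrp4, above it on 1. A kept sign thus does not set the genes named first apart. Leaving out arrays gave 0.14 to 0.72 for Ctnnb1, 0.16 to 0.50 for Apc, 0.12 to 0.59 for Dvl2, 0.18 to 0.49 for Axin1, -0.65 to -0.29 for Wnt5a, -0.44 to -0.13 for Wnt3, 0.60 to 1.11 for Fzd6 and -0.34 to -0.25 for Lrp5. Without control replicate 3, Ctnnb1, Apc and Dvl2 were 0.21, 0.20 and 0.18. The cause was not tested. Signal near background limits Axin2, the antagonists and 12 probes above it on no array.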
